A study of Mus musculus with 6 samples.

Results

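DNA methylation writers and erasers are the enzymes that place the methyl mark on cytosine, copy it at replication and oxidise it for removal. The members were all peaks that the authors' deposited table of differential accessibility assigns to Dnmt1, Dnmt3a, Dnmt3b, Dnmt3l, Tet1, Tet2, Tet3 or Uhrf1. They came to 45 of the 65535 peaks in that table, at 7 of the 8 genes. Tet2 held 23 of them, Dnmt3a 7, Dnmt3b 5, Tet1 4, Tet3 3, Dnmt3l 2 and Uhrf1 1, and no listed peak carried the symbol Dnmt1.

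The series holds 6 ATAC-seq libraries of mouse embryonic stem cells, an assay whose transposase Tn5 inserts adapters where chromatin is open. Both groups were E14 cells with the transgenic reporter Tg(Nkx2-5-EmGFP), kept with leukemia inhibitory factor on mitomycin-treated mouse embryonic fibroblasts that were reduced by preplating. Per the labels, 3 libraries were WT controls and 3 were Lmna KO, a knockout of the gene for lamins A and C of the nuclear lamina. The labels name neither clones nor separate cultures, so every deposited p-value rests on library spread that may be technical only.

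Methylation of CpG dinucleotides is set de novo by Dnmt3a and Dnmt3b, with Dnmt3l as a cofactor that has no catalytic activity of its own. Uhrf1 recognises hemimethylated DNA after replication and recruits Dnmt1, which restores the mark on the new strand. Tet1, Tet2 and Tet3 oxidise methylcytosine, the first step of active demethylation. In mouse embryonic stem cells Tet1 and Tet2 are the Tet enzymes with high expression, and the de novo enzymes are known to rise as cells leave the naive state.

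The values of each peak are the authors' group means (log2 of mean normalised reads, called concentration here), their log2 fold of knockout over control, and their FDR. Peaks past an FDR of 0.05 are called gained or lost. In bulk libraries a change in the share of cells with an open site and a change of openness per cell cannot be told apart. Values per library were not used here, so no spread within a group can be given, and the depth is unknown. The largest p in the table was 0.422. From the relation of FDR to rank about 99077 peaks were tested, so any further peak of these genes, Dnmt1 included, is not analysed here.

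The labels were checked first. At Lmna, the authors' deposited table gives a log2 fold of -4.27 at chr3:88492472-88493370 (mm10, FDR 4.44e-20) and -3.93 at chr3:88503109-88503930 (FDR 4.77e-07). Other peaks assigned to Lmna were gained, one in its 5′ UTR (deposited log2 fold 0.61, FDR 0.0209) and one distal (1.52, FDR 9.76e-05). For the cell type, 9 of 10 stem cell marker genes had a listed peak within 3000 bases of a transcription start site (TSS), and all 9 reached a deposited concentration of 5 there. Of 12 fibroblast markers, which would mark the feeder layer, 8 had such a peak and 4 reached 5, and 3 of their 33 listed peaks were called (9.09%). Of the 60 listed peaks of the stem cell markers 24 were gained and 1 lost, 41.7% in all against 18.4% of all listed peaks, with a median deposited log2 fold of 0.76. The part of cell state or of feeder cells in the results below was not tested.

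RefSeq (GRCm38.p6, the assembly of mm10) gave 15 promoter windows for the 8 genes, each reaching from 250 bases before to 50 after a start. Listed peaks overlapped 9 of the 15, at all members but Dnmt1. The windows below are shown because a listed peak overlaps each, and because their content of CpG, the substrate of these enzymes, differs widely. Capitals mark every CpG, and the sequences run 5′ to 3′ along the gene.
Tet2 (chr3:133544341-133544640, minus strand): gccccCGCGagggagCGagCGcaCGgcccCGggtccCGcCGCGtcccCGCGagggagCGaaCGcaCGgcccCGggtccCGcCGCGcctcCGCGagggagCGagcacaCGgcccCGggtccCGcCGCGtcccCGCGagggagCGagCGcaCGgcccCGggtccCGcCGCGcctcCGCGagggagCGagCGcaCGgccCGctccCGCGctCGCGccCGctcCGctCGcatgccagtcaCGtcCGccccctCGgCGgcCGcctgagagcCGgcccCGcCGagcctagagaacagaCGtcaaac
Dnmt3a, internal start (chr12:3891494-3891793, plus strand): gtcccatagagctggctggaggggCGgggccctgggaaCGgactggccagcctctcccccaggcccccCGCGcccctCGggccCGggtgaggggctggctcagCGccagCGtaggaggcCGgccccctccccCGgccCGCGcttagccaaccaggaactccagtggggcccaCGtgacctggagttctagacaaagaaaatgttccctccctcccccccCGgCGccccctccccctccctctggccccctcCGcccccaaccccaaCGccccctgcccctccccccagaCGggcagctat
Tet1 (chr10:62887275-62887574, minus strand): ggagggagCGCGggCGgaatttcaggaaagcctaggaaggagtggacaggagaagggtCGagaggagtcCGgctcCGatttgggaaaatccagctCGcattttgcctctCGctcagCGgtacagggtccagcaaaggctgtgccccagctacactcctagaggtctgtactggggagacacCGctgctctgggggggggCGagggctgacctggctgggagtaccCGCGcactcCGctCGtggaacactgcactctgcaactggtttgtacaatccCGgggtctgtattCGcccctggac
Dnmt3l (chr10:78049592-78049891, plus strand): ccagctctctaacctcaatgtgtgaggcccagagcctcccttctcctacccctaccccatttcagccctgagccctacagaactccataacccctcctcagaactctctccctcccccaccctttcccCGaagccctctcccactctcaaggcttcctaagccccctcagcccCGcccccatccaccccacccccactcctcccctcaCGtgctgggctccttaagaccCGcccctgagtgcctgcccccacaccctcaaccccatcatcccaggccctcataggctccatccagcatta

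The Tet2 window held 57 CpG, more than 99.8% of the 32851 mouse promoter windows, whose median was 7. The internal Dnmt3a window held 18, the Tet1 window 17 and the Dnmt3l window 4. On either strand, GGGCGG, the core of the Sp box, was present in 12 of the 15 member windows and in 35.7% of all windows. CCAAT was in 5 of 15 (37.4% of all) and the E-box CACGTG in 2 of 15 (7.15% of all), the internal Dnmt3a window and the Dnmt3l window printed above. GGGCGG and CACGTG each hold a CpG, and no comparison with windows of like CpG content was made. Some windows of the same gene overlap, and these matches describe letters and not bound sites.

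Of the 45 member peaks, 8 were gained and 2 were lost in the knockout cells in the authors' deposited table. The gained share was 17.8%, against a background of 16.1% of all listed peaks, and the lost share 4.44% against 2.26%. Gained or lost together, 22.2% of member peaks were called, against 18.4% of listed peaks, and against 14.2% of those off chromosome 14, which holds no member (11.8% gained and 2.42% lost there). These shares lie near the background, so the genes as a group did not stand out by their number of changed peaks. By gene, 6 of 23 Tet2 peaks, 1 of 4 Tet1 peaks and 1 of 5 Dnmt3b peaks were gained (16.1% of all listed peaks). Both losses were among the 7 Dnmt3a peaks (2.26% of all listed peaks were lost). Tet2 holds 23 of the 45 member peaks, and differences between genes were not tested.

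**Figure D1:**
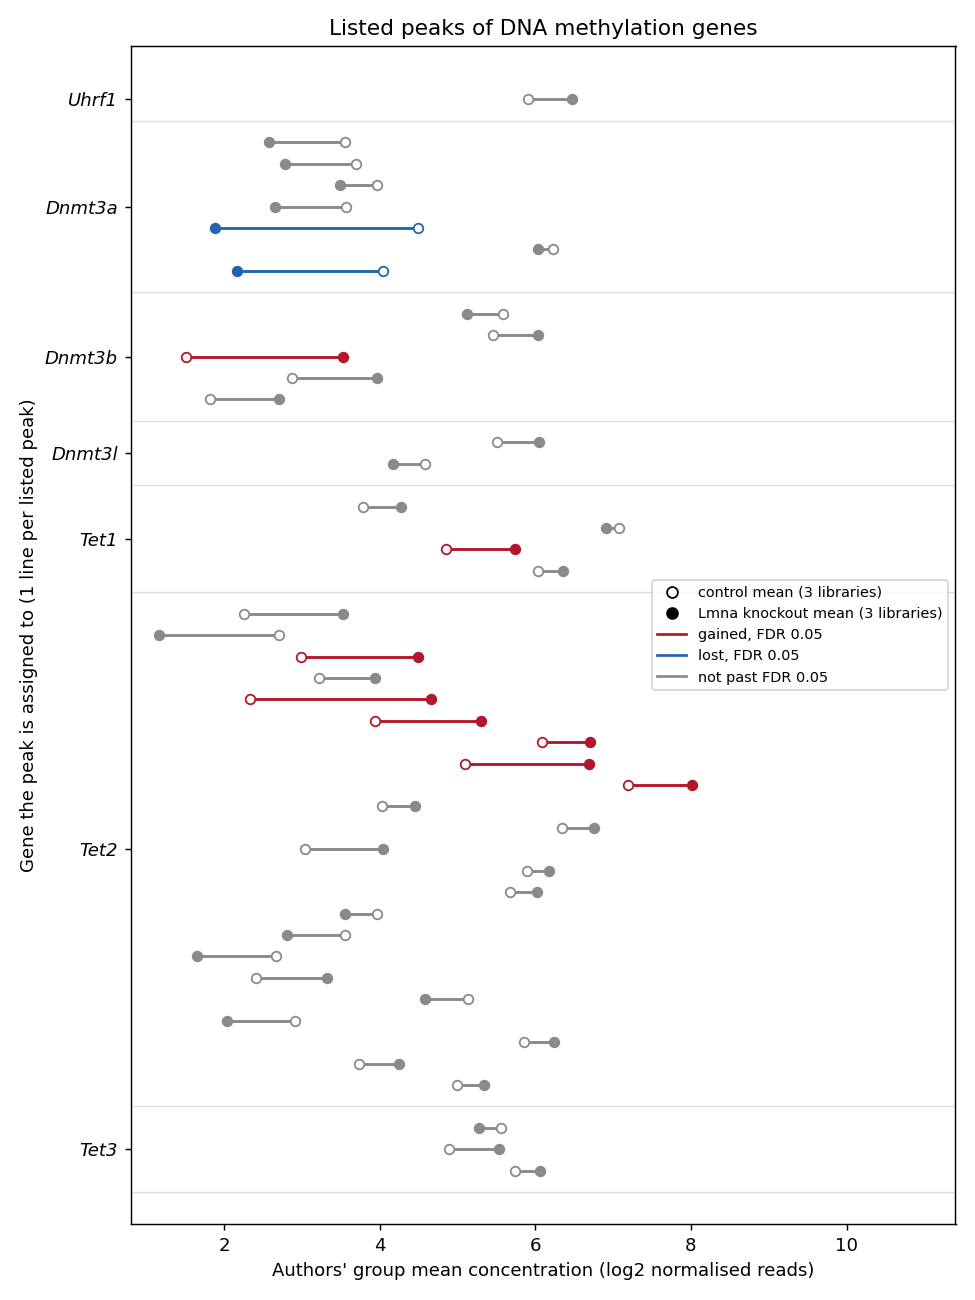
Authors' group mean concentration (log2 normalised reads) of each of the 45 member peaks, 1 line per peak in genome order within each gene, with open points for control and filled points for Lmna knockout. Red lines are the 8 gained peaks, blue lines the 2 lost ones, and all 7 Dnmt3a lines run to lower values in the knockout.

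By role, the erasers lay near all listed peaks in direction. The de novo writers leaned to negative folds, with all 7 Dnmt3a folds negative. At the Tet genes 22 of 30 listed peaks had a positive deposited fold, with a median of 0.42 on the log2 scale, 7 gained and 0 lost. At Dnmt3a, Dnmt3b and Dnmt3l 5 of 14 were positive, with a median of -0.44, 1 gained and 2 lost. Over all listed peaks 69.1% were positive and the median was 0.49. The difference between the roles was not tested, since peaks of 1 gene are not replicates. Without Tet2 and Dnmt3a 5 of 7 peaks were positive in either role, with a median of 0.32 for erasers and 0.58 for writers.

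Tet2, a dioxygenase that oxidises methylcytosine, had the most listed peaks and the most gains, and all 6 gains lay inside the gene. At chr3:133524341-133525133, in intron 1 and 19.7 kb after the RefSeq start, the authors' deposited concentration was 5.10 in control and 6.69 in knockout cells, a log2 fold of 1.59 or 3.01-fold (FDR 7.41e-09). The strongest peak of any member, chr3:133532451-133534780 in the same intron, went from 7.19 to 8.02 in the deposited table (log2 fold 0.82, FDR 4.14e-07). The steepest gain was in intron 2, at chr3:133506400-133506857, from 2.33 to 4.66 (deposited log2 fold 2.33, or 5.03-fold, FDR 0.000178). The gains thus held both strong and weak sites of the control cells.

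The remaining Tet2 gains were smaller or less certain. In intron 1 the deposited concentration went from 3.94 to 5.30 at chr3:133515418-133515980 (log2 fold 1.36, FDR 0.00391) and from 6.08 to 6.70 at chr3:133518391-133519437 (log2 fold 0.62, FDR 0.0161). In exon 3 of the deposited annotation it went from 2.99 to 4.49 at chr3:133485181-133486220 (log2 fold 1.5, FDR 0.0147). Together the 6 gains spanned 10.8 to 58.7 kb after the start.

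The Tet2 promoter itself was not called. The peak over the CpG-rich window printed above, chr3:133543061-133545256, had deposited concentrations of 6.34 in control and 6.75 in knockout cells (log2 fold 0.41, FDR 0.152). Of 11 listed peaks inside the RefSeq span, chr3:133463677-133545136, 10 had a positive deposited fold. The exception was a weak site, chr3:133475991-133476196, at 2.70 in control and 1.17 in knockout cells (deposited log2 fold -1.54, FDR 0.214). Upstream of the gene 12 further peaks, up to 332.1 kb away, are assigned to Tet2, and none was called. Their deposited log2 folds ran from -1.02 to 0.99, 7 positive and 5 negative (FDR 0.175 to 0.60).

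**Figure D2:**
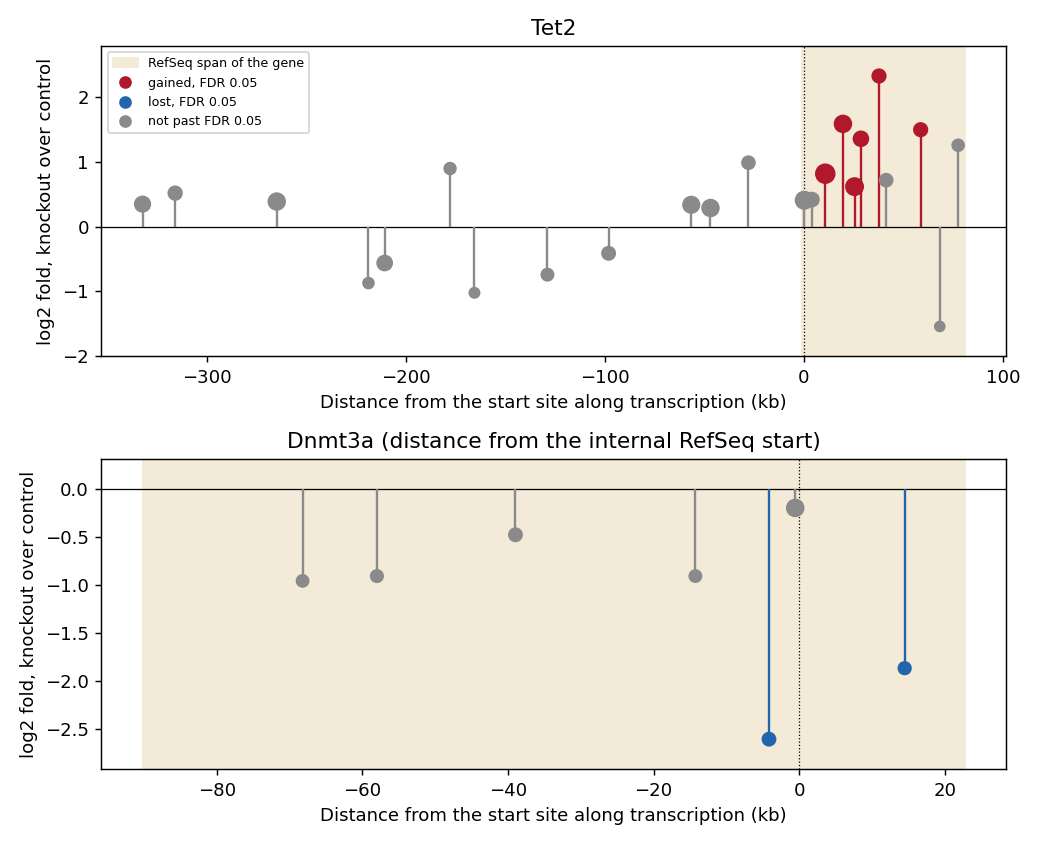
Deposited log2 fold (knockout over control) of each listed peak of Tet2 (upper panel) and Dnmt3a (lower panel) against the distance of its centre from a RefSeq start along transcription, in kb, with point area growing with concentration and shading for the RefSeq span. The 6 Tet2 gains lie 10.8 to 58.7 kb after the start while the 12 upstream peaks are grey, and the Dnmt3a losses lie 4.2 kb before and 14.5 kb after the internal start.

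Tet1, the other Tet enzyme of stem cells, gained 1 peak upstream of its main promoter. At chr10:62892731-62893168, 5.6 kb before the RefSeq start and over the start of an Ensembl transcript in the deposited annotation, concentration went from 4.85 to 5.74 (deposited log2 fold 0.89, or 1.85-fold, FDR 0.0216). The broad peak over the Tet1 window printed above, chr10:62883765-62887525, had deposited means of 7.08 in control and 6.91 in knockout cells (log2 fold -0.18, FDR 0.564). The site next to the gain, chr10:62896848-62898542, had a deposited log2 fold of 0.30 (FDR 0.329), and the peak in intron 1 one of 0.50 (FDR 0.453).

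Tet3, the Tet enzyme best known from the zygote and from neurons, had 3 listed peaks and no call. Its starts lay under 2 of them, with deposited log2 folds of 0.63 at chr6:83441217-83442005 (FDR 0.13) and 0.32 at chr6:83454638-83457670 (FDR 0.362). The intronic peak chr6:83421585-83422456 had a deposited log2 fold of -0.28 (FDR 0.546).

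Dnmt3a, a de novo methyltransferase, had the opposite direction to Tet2. Its internal start gives the short isoform Dnmt3a2, the main Dnmt3a product of mouse embryonic stem cells. At chr12:3887473-3887709, 4.2 kb before that start, the authors' deposited concentration was 4.49 in control and 1.88 in knockout cells (log2 fold -2.61, 6.11-fold lower, FDR 0.000561). At chr12:3905824-3906628, 14.5 kb after it, the deposited concentration was 4.04 in control and 2.17 in knockout cells (log2 fold -1.87, 3.66-fold lower, FDR 0.0293). Both lost peaks were weak in the knockout and of middle strength in the control cells. In the deposited annotation both lie within 3000 bases of the start of a short Ensembl transcript inside the gene and are labelled promoters of it.

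Between these sites the internal promoter was accessible in both groups. The peak over the internal window printed above, chr12:3889930-3892458, had deposited concentrations of 6.23 in control and 6.04 in knockout cells (log2 fold -0.20, FDR 0.57). The other 4 Dnmt3a peaks, all in the part of the gene before the internal start, had deposited log2 folds from -0.96 to -0.48 and did not pass (FDR 0.271 to 0.599). So all 7 listed folds of Dnmt3a were negative, with a median of -0.91, and 6 of the 7 peaks had a mean concentration under 4. Of listed peaks off chromosome 14 with a concentration from 3 to 4, 61.2% had a positive fold. That share depends steeply on concentration, with 33.6% below 3 and 76.8% from 4 to 5. The lowest Dnmt3a concentration was 3.14. No listed peak lay over the windows at the first Dnmt3a start, that of the long isoform.

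Dnmt3b, the other de novo enzyme and a gene of high expression in primed cells, had 1 gain. In intron 1, at chr2:153660629-153660910 and 11.3 kb after the start, the deposited concentration was 1.51 in control and 3.53 in knockout cells (log2 fold 2.02, or 4.06-fold, FDR 0.0419). This is a weak site, close to the threshold. At the promoter, chr2:153648891-153650413, the deposited means were 5.46 and 6.04 (log2 fold 0.58, FDR 0.0945), just outside it. The upstream peak chr2:153642596-153643593 had a deposited log2 fold of -0.47 (FDR 0.23), and 2 peaks downstream of the gene had 1.10 and 0.89 (FDR 0.147 and 0.455).

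Dnmt3l, the cofactor, had no call at its 2 listed peaks. At the CpG-poor window printed above, the peak chr10:78048156-78050159 went from 5.51 to 6.05 (deposited log2 fold 0.53, FDR 0.155). The peak over an inner start, chr10:78054669-78055668, had deposited means of 4.58 in control and 4.17 in knockout cells (log2 fold -0.41, FDR 0.478).

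For maintenance, the 1 listed peak was the promoter of Uhrf1. At chr17:56303000-56304254 the deposited concentration was 5.90 in control and 6.47 in knockout cells (log2 fold 0.57), and with an FDR of 0.0648 it was the member peak nearest above the threshold. The member peaks just inside it were the weak Dnmt3b intron site (FDR 0.0419) and the Dnmt3a site after the internal start (FDR 0.0293). For Dnmt1, the maintenance methyltransferase, the RefSeq span chr9:20907206-20959888 held 1 listed peak, chr9:20913439-20913924, which the deposited table assigns to Mir7081 (log2 fold 0.96, FDR 0.278).

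Peaks directly over a start were mostly without a call. Of 10 member peaks that overlap a start in the deposited annotation, at 7 genes, 1 was called, the upstream Tet1 site, against 13.5% of the 10453 listed peaks over a start. Their deposited log2 folds ran from -0.41 to 0.89, with a median of 0.47, and the median of all listed peaks over a start was 0.40. Of the 35 member peaks elsewhere 9 were called (25.7%), against 19.3% of listed peaks elsewhere.

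Direction in this table goes with peak strength, and the members were set against that. At a concentration of 6 or more 8 of 10 member peaks had a positive deposited fold, against 95.3% of listed peaks off chromosome 14. The pair of exceptions were the main Tet1 promoter and the internal Dnmt3a promoter. From 3 to 4, 6 of 14 member peaks were positive, against 61.2%, and 2 were gained and 2 lost there, against 7.76% and 2.85% of listed peaks. Both losses and most of the negative folds in that range were of Dnmt3a, and the peaks of other members there were mostly positive. At 6 or more 3 of 10 member peaks were gained, against 25.1% of listed peaks off chromosome 14, so this share lies near the background. These 3 gains, all at Tet2, had log2 folds of 1.59, 0.82 and 0.62, and the other Tet2 peaks 0.41, 0.39 and 0.29. The median over listed peaks of that strength was 0.40. Gained peaks are selected by their fold, so no test is drawn from this.

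**Figure D3:**
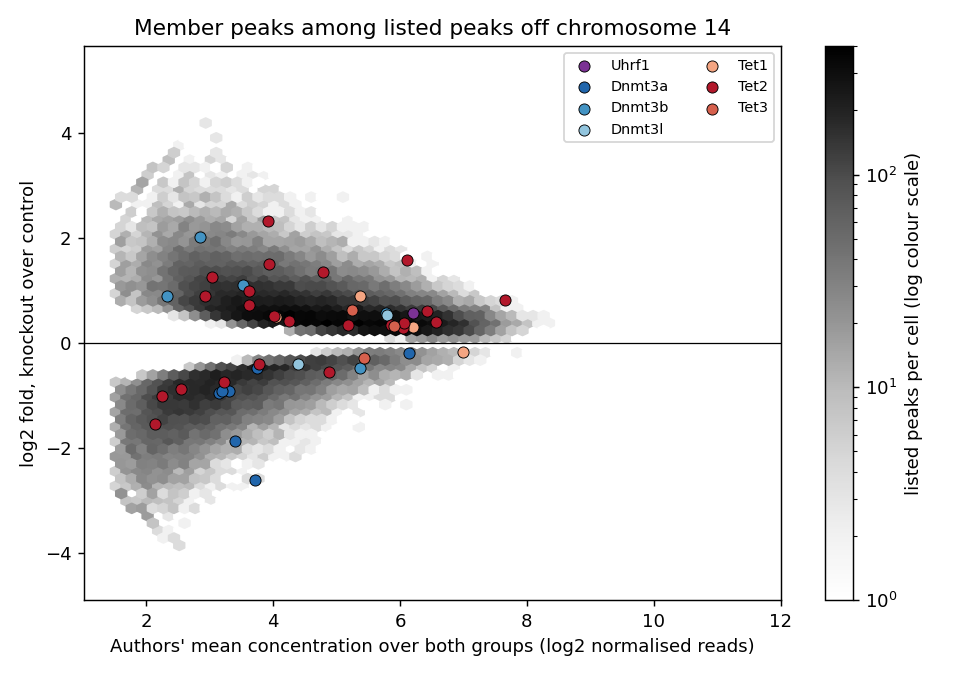
Deposited log2 fold (knockout over control) against mean concentration (log2 normalised reads) for listed peaks off chromosome 14 (grey cells, log colour scale) and for the 45 member peaks (coloured by gene). The empty band around 0 is where peaks were not listed; 17 of the 23 Tet2 points lie above 0 and 6 below it, with the 2 lost Dnmt3a points along the lower edge.

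The zero of the folds bears on most of these calls. The median log2 fold of all listed peaks was 0.49, so each peak was retested around that value, taking its standard error from its deposited p. Of the 8 gains 2 passed it, both at Tet2, chr3:133524341-133525133 (centred log2 fold 1.10, adjusted p = 0.000475) and chr3:133506400-133506857 (1.84, adjusted p = 0.00813). The other 6, with centred log2 folds from 0.13 to 1.53, did not. Both Dnmt3a losses held, at -3.10 and -2.36. After centring 4 more member peaks counted as lost, among them the internal Dnmt3a promoter (-0.69, adjusted p = 0.0219) and the main Tet1 promoter (-0.67, adjusted p = 0.0111). Over all listed peaks this retest calls 4.47% gained and 8.93% lost, and the listed median may lie above the true zero, because peaks of small change are not listed.

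Other genes of the pathway were taken from a list of 53 partners, readers and suppliers, of which 47 had a listed peak. Of their 213 peaks 25 were gained and 8 lost, 15.5% in all, against 18.4% of listed peaks and 14.2% of those off chromosome 14. The median deposited log2 fold was 0.42, below the 0.49 of all listed peaks. The share of the list lies near the background. Gains reached 19 of these genes and losses 7. In each of the 4 groups of the list the median was positive, from 0.33 for readers to 0.50 for maintenance and targeting partners.

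Among maintenance and targeting partners 15 of 105 peaks were gained and 2 lost. This was 16.2% called, near the 18.4% of all listed peaks (16.1% gained and 2.26% lost). Zfp57, which keeps methylation at imprinted loci, had 3 gained peaks, the first at chr17:36995273-36995774, from 3.91 to 5.64 (deposited log2 fold 1.73, FDR 1.36e-05). Trim28, the corepressor that Zfp57 recruits, had a lost peak at chr7:13031098-13032176 in the deposited table, from 6.34 to 5.28 (log2 fold -1.06, FDR 0.000651). The stronger Trim28 peak over a start, chr7:13022810-13025099, was not called (deposited log2 fold 0.30, FDR 0.187). Cdca7, a partner of the remodeller Hells, gained a distal peak in the deposited table, from a concentration of 5.16 to 6.28 (FDR 0.00035). Gains with a deposited log2 fold of 1.06 each lay at Ehmt1, an H3K9 methyltransferase, and at Lig1, the replication ligase that recruits Uhrf1 when methylated. Prdm14 (0.74), a repressor of the de novo enzymes in naive cells, and Morc1 (0.64), needed for transposon silencing in male germ cells, gained a peak each in that table. The Prdm14 gain was distal, and most other Prdm14 peaks had negative deposited log2 folds, from -1.23 to -0.30, without a call. After centring, 1 of the 3 Zfp57 gains held, the first above, as did the Trim28 loss, and the other gains named here did not.

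Of 33 reader peaks 3 were gained and 1 lost (12.1% called, against 18.4% of all listed peaks). Mbd2, a methyl-CpG binding protein, held calls in both directions, with its smallest FDR at a gained intron site (deposited log2 fold 0.89, FDR 0.000272). The Mbd2 loss was at a weak distal site, from 3.53 in control to 0.47 in knockout cells (deposited log2 fold -3.05, FDR 0.00961). Of 49 demethylation partner peaks 4 were gained and 2 lost (12.2% called, against 18.4% of all listed peaks). Parp1, a sensor of DNA breaks, gained at chr1:180606800-180607548, from 2.99 to 4.93 (deposited log2 fold 1.94, FDR 0.00175), and Apobec1, a cytidine deaminase, had a deposited log2 fold of 1.18 (FDR 0.00547). After centring this Parp1 gain and the Mbd2 loss held, and the Mbd2 and Apobec1 gains did not. Cxxc4, which carries the CXXC domain that the ancestral Tet2 gene lost and lies 691 kb from Tet2, was chosen after its values were seen. Of its 10 listed peaks 0 were gained and 1 was lost, chr3:134146561-134147246 (deposited log2 fold -1.05, FDR 0.0203).

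Genes of methyl donor supply had 3 gained and 3 lost peaks of 26. This was 23.1% called, against 18.4% of all listed peaks (16.1% gained and 2.26% lost), a difference that was not tested. Mat2a, which makes S-adenosylmethionine, fell at chr6:72431124-72432901, from 7.09 to 6.42 in the deposited table (log2 fold -0.68, FDR 0.00365). This peak lies 2090 bases after a transcript start other than the one used for the distal Mat2a peaks. Of the distal Mat2a peaks, 1 was lost (deposited log2 fold -3.33, FDR 0.0244) and 1 gained (1.44, FDR 0.0392). The lost one was a weak site, at 2.88 in control and -0.45 in knockout cells. Gnmt, which consumes S-adenosylmethionine in the liver, rose at its promoter, from 4.41 to 5.57 (deposited log2 fold 1.15, FDR 0.0061). After centring both Mat2a losses held, and the Mat2a and Gnmt gains did not.

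**Figure D4:**
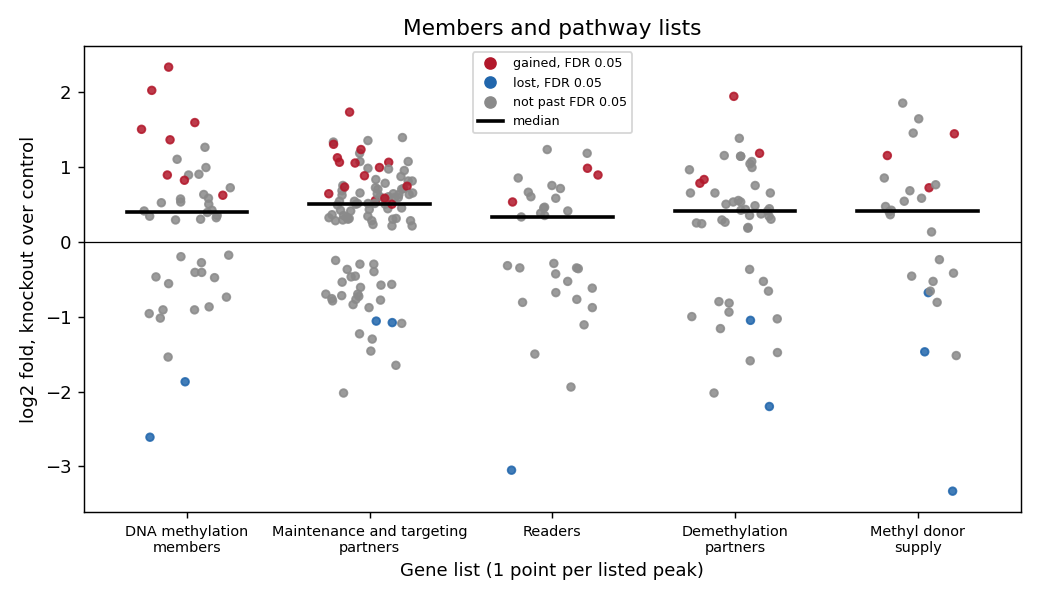
Deposited log2 fold (knockout over control) of each listed peak of the 8 members and of the 4 pathway lists, 1 point per peak, with red for gained, blue for lost and grey for neither, and a bar at each median. The medians lie between 0.33 and 0.50, and every list holds gained and lost peaks.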

How the data were processed

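ATAC-seq was made from 3 control and 3 Lmna KO libraries, and 1 table of the authors' comparison was used. Tools in the submitters' processing notes are Trimmomatic 0.39, Picard 1.119 and bedtools 2.28.0 for reads, with Bowtie2 and SAMtools, then MACS2, deepTools, ChIPseeker, DiffBind and DESeq2, on mm10. Settings, Tn5 shift and normalization: not given in the sources used here. The log2 concentrations, log2 fold, p-value, FDR, gene symbols and distances to a start are those the authors deposited. The fold equalled knockout minus control (tolerance 0.015) at 100% of peaks.

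No counts were in the table, so the edgeR fit planned for counts was not made and no p-value was computed between libraries. The retest divided each centred fold by the standard error implied by its p under a normal test. Adjustment was by Benjamini-Hochberg over 99077 peaks, with the unlisted ones at a p of 1. A trial on simulated data had every peak present and was given the true centre. That trial did not test the handling of unlisted peaks or the use of the listed median. Members and lists were chosen with earlier results of these data known. All members were named, with each peak past an FDR of 0.05 and the peak nearest a start; pathway genes were named by smallest FDR, at most 12. Values were computed with pandas 2.3.3, SciPy 1.17.1 and numpy 2.4.6 in Python 3.11.15, and drawn with matplotlib 3.10.9. Promoter sequences are from RefSeq, GRCm38.p6.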

Additional observations from a re-analysis of the deposited data

How the results depend on the processing

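No paired analysis was possible because only means of each group were deposited in the file used. Leaving out each replicate and the fits on counts were not run either. The main values are 8 gained peaks, 2 lost peaks and 4 genes with a call. Limiting FDR to 0.01 left 4 gained peaks and 1 lost peak at 2 genes, Tet2 and Dnmt3a. Requiring a log2 fold of 1 or more in size left 5 gained. At or above the median concentration there were 5 gained and 0 lost, at 2 genes. Centring with a retest gave 2 gained and 6 lost. It turned the uncalled folds of the Tet2 promoter (-0.08) and of the Tet3 peak chr6:83454638-83457670 (-0.17). The peak over the Tet3 RefSeq window, chr6:83441217-83442005, stayed positive at a centred log2 fold of 0.14. Within 3000 bases of a start there was 1 gained, and 2 genes had a call. An FDR of 0.1, the span of the gene, and adding the 3 listed peaks inside member spans under another symbol, chosen after seeing the data, kept all 3 values within 1.5 times. Depth per library is unknown.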

Other observations

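Listed peaks of neighbouring genes within 20000 bases of the members were read as well, since peaks are assigned by the nearest start. There were 16, none on chromosome 14, of which 4 were gained and 1 lost. Of all listed peaks 16.1% were gained and 2.26% lost, and of those off chromosome 14 11.8% and 2.42%. With so few neighbouring peaks the difference was not tested. Beside Uhrf1, Kdm4b, an H3K9 demethylase, had a deposited log2 fold of 0.52 at its promoter chr17:56324535-56326300 (FDR 0.00952), and Plin3, a lipid droplet protein, one of 1.37 (FDR 0.00578). Beside Dnmt3l, Icosl, a costimulatory ligand, had a gained promoter peak (deposited log2 fold 0.73, FDR 0.0273). On the sides of Dnmt1, S1pr2, a receptor for sphingosine 1-phosphate, gained at chr9:20978601-20979669 (deposited log2 fold 0.71, FDR 0.0204), and Ppan, a ribosome biogenesis factor, lost at chr9:20891705-20893786, from 6.72 to 5.98 (deposited log2 fold -0.74, FDR 0.00287). After centring and retesting the Ppan loss held and the 4 gains did not.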
